A study of Mus musculus with 2 samples.

Results

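Immediate early genes of the AP-1 circuit are described here in peritoneal macrophages: Fos, Fosb, Fosl2, Jun, Junb, Jund, Egr1, Ier2, Atf3 and Dusp1. They were picked by name as a functional group, with no threshold on their values, and make up 10 of the 15605 genes listed in the deposited tables. The study compared macrophages of Lgmn knockout mice (genotype lgmn-/-) with macrophages of wild type mice, all of the C57BL/6 strain and aged 6 to 8 weeks. Lgmn encodes the lysosomal protease legumain. Before RNA was taken, the macrophages of both genotypes had spent 4 days in culture with EO771, a tumour line of the mouse mammary gland. With 1 library per genotype, differences have no replicate check and p-values are not given. The number of mice per library, the kind of Lgmn deletion and whether the 2 cell types were kept apart in culture are not stated in the labels.

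Immediate early genes are transcribed within minutes of a stimulus, without new protein synthesis, from factors already bound near their start sites. The proteins of the Fos and Jun families pair through leucine zippers to form AP-1, which binds DNA upstream of genes for cytokines, proteases and growth control. MAP kinases act on these factors, and the phosphatase made from Dusp1 switches MAP kinases off again. In macrophages this circuit is known from the response to microbial products and to adherence.

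Estimated counts summed to 11740202 in the knockout library, with 14756 genes listed, and to 11885784 in the wild type library, with 14681. Levels within a library are given as FPKM, which scales fragments to transcript length and to library depth. Ratios set knockout over wild type counts after TMM scaling, with 1 scaled count added on each side. The range in brackets after a ratio or level is a 95% interval that covers counting error only. A gene was compared if the library with more of it had 50 or more estimated counts, and 2-fold was the size called a difference. Lgmn itself had 426 counts in the knockout library and 23550 in the wild type library, in the direction of the labels. Of 9498 genes compared, 6.05% were at least 2-fold higher in the knockout library and 1.74% at least 2-fold lower, 77.7% of the called genes being higher. That share was 90.6% with library totals, 90.2% with deposited FPKM and 53.0% with the transcript length trend removed. Totals and FPKM also moved the median log2 ratio of all genes compared from near 0 to 0.24 and 0.23.

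The macrophage markers Adgre1, Csf1r and Cd68 stood at 111, 193 and 3756 FPKM in the knockout library and at 67.3, 83.8 and 5173 FPKM in the wild type library. Gata6 and Timd4, markers of resident peritoneal macrophages, were at 0.74 and 0.62 FPKM in the knockout library and at 0.60 and 0.76 FPKM in the wild type library, all below 1 FPKM. Fibroblast and myofibroblast markers summed to 41.6 FPKM in the knockout library and 168 FPKM in the wild type library. Of the 12 compared, 11 were lower in the knockout library by 2-fold or more, against 1.74% of all genes compared. By that size 0 were higher, against 6.05%. T and NK cell markers summed to 326 and 169 FPKM in the same order. Among these, 7 of 12 compared were at least 2-fold higher, against 6.05%, and 0 lower, against 1.74%. No gene of these 2 lists was at 0 in either library, and the defining marker Col1a1 had 38 counts in the knockout library and 97 in the wild type library. Krt19, the 1 epithelial marker with enough counts to compare, had 4 counts in the knockout library and 67 in the wild type library and was 15.6-fold lower. Epcam had 2 counts in the knockout library and 1 in the wild type library, and Cd3e 7 and 2, in that order. Epithelial and mesothelial markers summed to 1.30 and 6.23 FPKM, B cell markers to 23.0 and 15.4 FPKM, and neutrophil and mast cell markers, of which S100a8 gave 106 and 83.0 FPKM, to 113 and 88.0 FPKM, again with the knockout library first. The part of these other cells in the values below was not tested. In bulk RNA, fewer cells of a type and less RNA per cell cannot be told apart.

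The immediate early genes differed in both directions. The largest differences were a lower Dusp1 and a lower Junb in the knockout library, each by close to 2-fold, and a higher Ier2 by a similar size, while the ratios of Jun and Jund were the closest to 1. Of the 10 genes, 8 had enough counts to be compared. Among these, 1 (Dusp1) was lower in the knockout library by 2-fold or more, against 1.74% of all genes compared, and 0 were higher by that size, against 6.05%. With the length trend removed it was 1 higher (Ier2), against 2.14%, and 0 lower, against 1.9%, and with deposited FPKM again 1 higher (Ier2), against 9.85%, and 0 lower, against 1.07%. At 1.5-fold, Junb and Dusp1 were lower, against 6.39% of all genes compared, and Ier2 was higher, against 16.4%. The median log2 ratio of the 8 genes was -0.06, beside -0.0006 for all genes compared, with 3 above 0 and 5 below. Summed over all 10 genes, the knockout library held 11217 counts and 438.9 FPKM, and the wild type library 13842 counts and 552.2 FPKM.

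**Figure D1:**
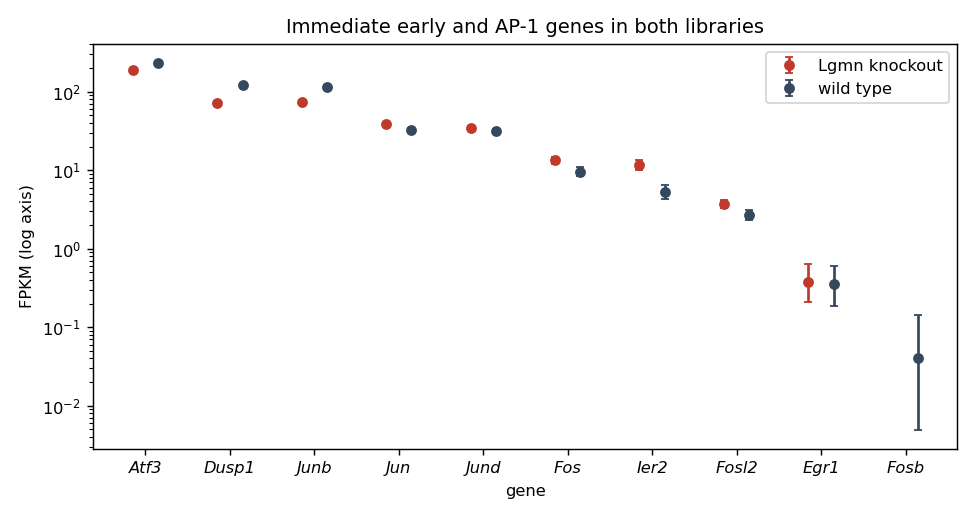
Level of each gene in FPKM on a log axis, knockout in red at the left of each pair and wild type in dark blue at the right. Bars are 95% Poisson intervals of the counts, which cover counting error only, and Fosb has no knockout point because it is listed only in the wild type file. Atf3 is highest in both libraries, at 190 FPKM in the knockout library and 230 FPKM in the wild type library, and Egr1 and Fosb are lowest.

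The order of the levels was almost the same in both libraries. Atf3 came first, and its rank among listed genes was 489 in the knockout library and 434 in the wild type library. Dusp1 and Junb followed with overlapping intervals in either library, then Jun and Jund, whose intervals also overlapped in each library. Fos and Ier2 came next and overlapped in the knockout library, at 13.4 FPKM (11.98 to 14.9) for Fos and 11.7 FPKM (10.2 to 13.4) for Ier2. In the wild type library Fos, at 9.60 FPKM (8.43 to 10.9), lay above Ier2, at 5.33 FPKM (4.33 to 6.50), without overlap. Fosl2, Egr1 and Fosb ended the order in each library.

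The Fos family, whose members cannot bind DNA as AP-1 without a Jun partner, held the lower levels among the Fos and Jun genes. Fos (Entrez gene 14281, chromosome 12, 85473890 to 85477274 in GRCm38) had 334 counts and 13.4 FPKM in the knockout library, against 243 counts and 9.60 FPKM in the wild type library. Its ratio was 1.18 (0.997 to 1.40), an interval that includes no difference at this depth. Fosl2, which encodes the Fos relative Fra-2, had 262 counts and 3.71 FPKM in the knockout library, against 191 counts and 2.67 FPKM in the wild type library. Its ratio was 1.18 (0.973 to 1.43), and its log2 ratio of 0.23 became -0.31 with the length trend removed, so its direction depends on that step. Fosb had 0 counts in the knockout file, where it is not listed, and 2 counts in the wild type library, and no ratio is given.

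The promoter of Fos is shown because this gene is the classical immediate early gene, whose start region carries a cAMP response element. All promoters printed here come from RefSeq on GRCm38.p6 and run from 250 bases before the start site to 50 from it on. They are written 5′ to 3′ on the strand of the gene, and capitals mark motif matches. In Fos (chr12:85473640-85473939, plus strand) the capitals are the CRE core TGACGT, 66 bases before the start, and the TATA box TATAAA, 33 bases before it.
Fos: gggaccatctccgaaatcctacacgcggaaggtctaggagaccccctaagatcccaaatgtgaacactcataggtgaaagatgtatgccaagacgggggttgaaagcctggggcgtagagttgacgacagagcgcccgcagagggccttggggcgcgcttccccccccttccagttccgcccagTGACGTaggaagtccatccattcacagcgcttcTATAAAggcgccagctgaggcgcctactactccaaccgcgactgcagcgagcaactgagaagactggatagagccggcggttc

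The Jun family carried most of the RNA of the 6 Fos and Jun genes, and its members differed from each other. Atf3, which pairs with Jun proteins, is not among these 6. Jun (Entrez gene 16476, chromosome 4, 95049036 to 95052222), the founding member, had 1455 counts and 38.3 FPKM in the knockout library, against 1255 counts and 32.6 FPKM in the wild type library. Its ratio was 0.995 (0.922 to 1.07), an interval that includes no difference. Junb (Entrez gene 16477, chromosome 8, 84976909 to 84978748), a weaker activator than Jun on many promoters, had 1624 counts and 74.7 FPKM in the knockout library, against 2567 counts and 116 FPKM in the wild type library. Junb was 1.84-fold lower in the knockout library (1.73 to 1.96), short of the 2-fold size. Jund, which is expressed more steadily than the other Jun genes in most cells, had 1193 counts and 34.6 FPKM in the knockout library, against 1112 counts and 31.8 FPKM in the wild type library. Its ratio was 0.920 (0.847 to 0.9996). The log2 ratios of Jun and Jund changed sign with library totals and with deposited FPKM, where they were 0.23 and 0.12, beside a median of 0.23 for all genes compared.

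The promoters of Jun and Junb are shown as those of the Jun genes with the smallest and the largest difference. In Jun (chr4:95052173-95052472, minus strand) the capitals are TTACCTCA and TGACATCA, 164 and 45 bases before the start, AP-1-like elements known from the human gene for its response to its own product. These 8-letter motifs were found on either strand in 0.89% and 3.62% of 32851 promoters, and in 0.59% and 1.81% of the 9781 promoters of genes compared. In Junb (chr8:84978699-84978998, minus strand) the capitals are TATAAA at the annotated start.
Jun: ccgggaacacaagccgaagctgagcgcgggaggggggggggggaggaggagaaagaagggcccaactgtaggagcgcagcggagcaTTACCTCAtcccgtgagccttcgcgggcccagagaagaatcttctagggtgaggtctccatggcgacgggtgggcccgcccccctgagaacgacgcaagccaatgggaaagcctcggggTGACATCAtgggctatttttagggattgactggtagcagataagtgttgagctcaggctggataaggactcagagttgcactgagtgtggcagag
Junb: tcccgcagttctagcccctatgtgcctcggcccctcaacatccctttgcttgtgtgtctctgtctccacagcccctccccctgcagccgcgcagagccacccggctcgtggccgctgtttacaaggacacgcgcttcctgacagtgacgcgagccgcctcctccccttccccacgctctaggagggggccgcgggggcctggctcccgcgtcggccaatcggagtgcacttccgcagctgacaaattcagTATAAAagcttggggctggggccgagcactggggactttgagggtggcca

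The make-up of the Fos and Jun family RNA differed between the libraries, a comparison that does not depend on how the libraries are scaled to each other. Junb made up 45.3% of the summed FPKM of the 6 Fos and Jun genes in the knockout library and 60.3% in the wild type library. Jun made up 23.3% in the knockout library and 16.9% in the wild type library, Jund 21.02% and 16.5%, and Fos 8.13% and 4.97%, in the same order. Junb stood at 1.95 times the FPKM of Jun in the knockout library and 3.57 times in the wild type library, and the Junb to Jun count ratio was 1.83-fold lower in the knockout library (1.66 to 2.02). Against Jund it was 1.70-fold lower (1.53 to 1.88), and against Fos 2.17-fold lower (1.81 to 2.60). By contrast the Jund to Jun count ratio was 0.925 of that in wild type (0.827 to 1.04), and the Fosl2 to Fos ratio 0.998 (0.772 to 1.29), and both intervals include 1. The pairs do depend on the length step, and with the trend removed the Fosl2 to Fos ratio was 0.63 of that in wild type. The Junb to Jun ratio went from 0.546 of that in wild type to 0.649 with the trend removed, outside its counting interval. Against Jund it went from 0.590 to 0.673, also outside, and against Fos from 0.460 to 0.477, inside. The Fos family took 10.4% of the summed FPKM in the knockout library and 6.38% in the wild type library.

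**Figure D2:**
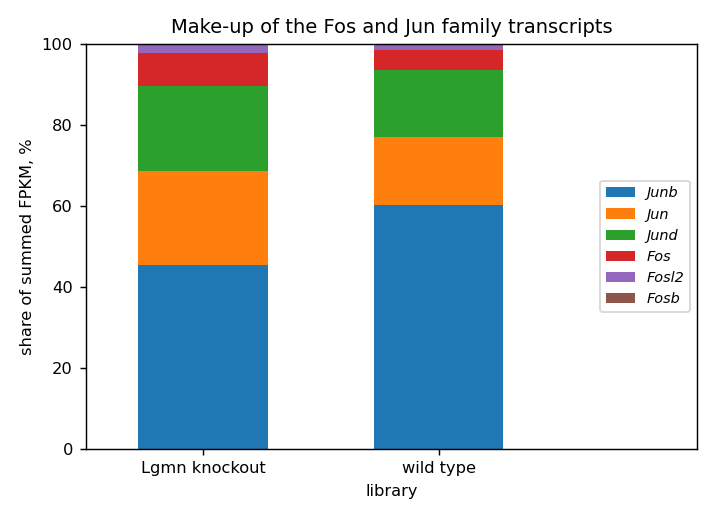
Share of each gene, in percent, in the summed FPKM of the 6 Fos and Jun genes, with the knockout library at the left and the wild type library at the right. The Junb segment is 45.3% in the knockout library and 60.3% in the wild type library, and those of Jun, Jund and Fos are all larger in the knockout library.

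Atf3 encodes a stress-induced factor of the ATF and CREB family that pairs with Jun proteins and restrains inflammatory genes in macrophages. It had 4459 counts and 190 FPKM in the knockout library, against 5477 counts and 230 FPKM in the wild type library. Atf3 (Entrez gene 11910, chromosome 1, 191170296 to 191183333) was 1.43-fold lower in the knockout library (1.38 to 1.49), less than Junb. Its log2 ratio of -0.52 was -0.37 with the length trend removed and -0.28 with deposited FPKM.

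Ier2 encodes a small nuclear protein of the growth factor response, and Egr1 a zinc finger factor. Ier2 (Entrez gene 15936, chromosome 8, 84661331 to 84662852) had 212 counts and 11.7 FPKM in the knockout library, against 98 counts and 5.33 FPKM in the wild type library. Its ratio was 1.85 (1.45 to 2.38), the highest among the 8 genes. Its log2 ratio of 0.89 was 1.11 with the length trend removed and 1.12 with deposited FPKM, both past 2-fold. Egr1 had 14 counts and 0.38 FPKM in the knockout library, against 13 counts and 0.35 FPKM in the wild type library. At this depth counting error alone gave the Egr1 ratio a 95% interval of 0.403 to 2.13. Ier2 and Junb lie 0.316 Mb apart on chromosome 8 and differed in opposite directions, with an Ier2 to Junb count ratio 3.42 times that of wild type (2.66 to 4.43).

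Dusp1 makes a nuclear phosphatase that removes the activating phosphates of p38, JNK and ERK and is itself an immediate early gene. It had 1664 counts and 72.0 FPKM in the knockout library, against 2884 counts and 123 FPKM in the wild type library. Dusp1 (Entrez gene 19252, chromosome 17, 26505591 to 26508472) was 2.02-fold lower in the knockout library (1.90 to 2.15), an interval that spans 2-fold. Its log2 ratio of -1.01 was -0.86 with the length trend removed and -0.77 with deposited FPKM, both short of 2-fold. Dusp1 stood at 0.965 times the FPKM of Junb in the knockout library and 1.06 times in the wild type library, and the count ratio was 0.912 of that in wild type (0.836 to 0.995), an interval just short of 1.

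The promoters of Atf3 and Dusp1 are shown because, with Fos, they are the 3 of 8 matched promoters that hold the CRE core. No promoter was matched for Ier2 or Egr1. TGACGT on either strand occurs in 7.51% of the 32851 promoters of the table and in 12.2% of the 9781 promoters of genes compared. In Atf3 (chr1:191183284-191183583, minus strand) the capitals are its reverse complement, 8 bases before the start. In Dusp1 (chr17:26508423-26508722, minus strand) the capitals are TGACGT, 191 bases before the start, and the full palindrome TGACGTCA, 143 bases before it, in which TGACGT reads on both strands and overlaps itself. The full form occurs in 1.79% of all promoters and in 3.16% of those of genes compared.
Atf3: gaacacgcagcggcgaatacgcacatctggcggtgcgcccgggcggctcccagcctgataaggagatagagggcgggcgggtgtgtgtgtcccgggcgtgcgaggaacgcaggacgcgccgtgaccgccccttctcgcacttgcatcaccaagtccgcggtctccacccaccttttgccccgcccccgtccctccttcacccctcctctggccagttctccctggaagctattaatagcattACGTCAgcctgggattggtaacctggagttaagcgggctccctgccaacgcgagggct
Dusp1: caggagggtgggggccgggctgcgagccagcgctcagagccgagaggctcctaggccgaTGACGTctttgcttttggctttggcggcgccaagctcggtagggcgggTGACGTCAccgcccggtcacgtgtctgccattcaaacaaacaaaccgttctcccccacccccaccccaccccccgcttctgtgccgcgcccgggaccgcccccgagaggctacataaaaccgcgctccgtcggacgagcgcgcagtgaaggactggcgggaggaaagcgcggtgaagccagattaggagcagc

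The 8 windows searched were those of Fos, Fosb, Fosl2, Jun, Junb, Jund, Atf3 and Dusp1. Ier2 and Egr1 had no matched promoter and were not searched. The AP-1 site TGACTCA, searched on both strands, was in none of these 8 windows, against 5.20% of all promoters and 3.87% of those of genes compared. The EGR site GCGTGGGCG, on both strands, and the CArG box bound by serum response factor were in none of them either, against 0.61% and 1.63% of all promoters and 1.26% and 1.17% of those of genes compared. A match is a description of letters, and the windows end 250 bases before the start.

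**Figure D3:**
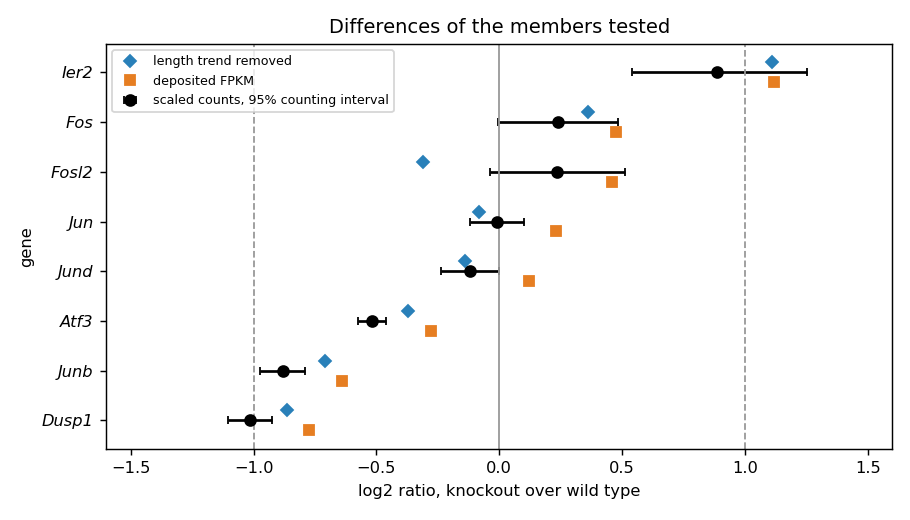
Log2 ratio of knockout over wild type for the 8 genes compared, ordered by the scaled count ratio (black, with its 95% counting interval). Blue diamonds have the transcript length trend removed, orange squares use deposited FPKM, and dashed lines mark 2-fold. Ier2 passes 2-fold higher with the blue and the orange marks, Dusp1 passes 2-fold lower only with the black ones, and Fosl2, Jun and Jund change sign between marks.

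Transcript length moved with the ratio across all genes, and the 10 genes span a wide range of lengths, 5 of them above the median of 2744 bases of the genes compared. With the genes compared split into 10 groups by length, the median log2 ratio was -0.37 among the shortest transcripts and 0.77 among the longest. Ier2, at 1541 bases, and Junb, at 1840 bases, fall in the third group, whose median was -0.20. In that group 10 of 950 genes, Ier2 included, had a ratio at least as high as that of Ier2, and 28 had one at least as low as that of Junb. Fos, Atf3 and Dusp1 fall in the fourth group, with a median of -0.14, where 19 of 949 genes had a ratio at least as low as that of Dusp1. Jun and Jund fall in the sixth group, with a median of 0.04, where 440 and 320 of 950 genes had a ratio at least as low. Fosl2, at 5886 bases, falls in the ninth group with a median of 0.42, above its own 0.23. With the trend removed, Dusp1 was 1.82-fold, Junb 1.63-fold and Atf3 1.29-fold lower in the knockout library, and Ier2 2.16-fold higher.

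**Figure D4:**
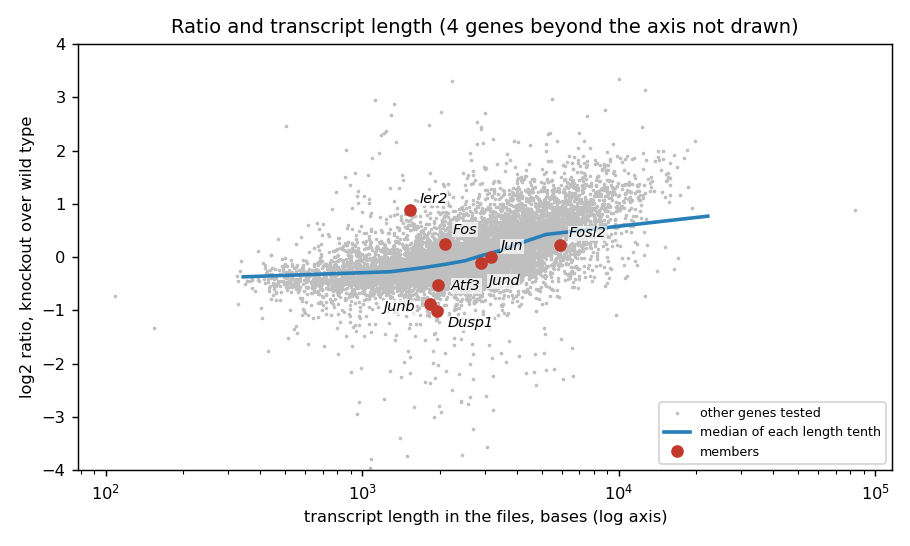
Log2 ratio of knockout over wild type against transcript length in bases on a log axis, for all genes compared (grey) and the 8 immediate early genes (red). The blue line joins the medians of the 10 length groups. Dusp1, Junb and Atf3 lie below the line at their length, Ier2 and Fos above it, and Jun and Jund close to it.

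Other features were looked up in GENCODE M21. Jun, Junb, Jund and Ier2 have 1 exon each, and the 6 other genes have 3 or 4. The pentamer ATTTA, a part of AU-rich elements that shorten the life of many induced mRNAs, was counted in the 3′ UTR. Dusp1 had 4 copies, or 5.80 per kilobase of 3′ UTR, a density reached by 4.37% of 9207 genes. Fos had 4 copies at 4.91 per kilobase, Junb 2 at 4.12 and Jun 4 at 3.24, beside a median of 1.33 per kilobase over those genes. Atf3 stood at 2.53, Jund at 1.88, Fosl2 at 1.72 and Egr1 at 1.68 per kilobase, and Fosb, at 0.47, below that median. By number alone, 28.7% of the genes had at least 4 copies and 49.8% at least 2. Ier2 had 0 copies, and 68.6% of the genes had at least 1. Over those 9207 genes, the median log2 ratio was -0.12 with 0 copies and 0.26 with 8 or more. With the length trend removed these medians were 0.03 and -0.12. A bearing of the copies on the ratios was not tested. Junb overlaps Prdx2 and Dusp1 overlaps Ergic1 on the opposite strand, and whether counting used strand is not stated in the labels or headers. Prdx2 had 2795 counts in the knockout library and 2972 in the wild type library, and Ergic1 1486 and 1530 in that order. Jun and Jund overlap antisense RNAs, Atf3 a small RNA, and Dusp1 pseudogenes and an intronic RNA, none of which was found in either file.

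Lists of related genes are set against the shares over all genes compared, 6.05% at least 2-fold higher and 1.74% lower. These shares were 2.14% and 1.9% with the length trend removed, and 9.85% and 1.07% with deposited FPKM. Among other subunits that join AP-1 or related leucine zipper dimers, 2 of 13 compared were at least 2-fold higher in the knockout library and 0 lower. Their median log2 ratio was 0.38, and 0.35 with the length trend removed, with 11 of 13 above 0. Batf2, an interferon-inducible factor that pairs with Jun proteins, had 251 counts in the knockout library and 73 in the wild type library, and was 2.93-fold higher (2.26 to 3.88). Fosl1, the other Fos relative, had 15 counts in the knockout library and 19 in the wild type library, too few to compare.

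Other immediate early genes, as listed here, lay on both sides of 0. Ccn1 and Ccn2 were counted with the fibroblast markers and not in this list, and were 7.53-fold and 6.58-fold lower in the knockout library. Of 21 compared, 1 was at least 2-fold higher in the knockout library and 1 lower, with 10 above 0 and 11 below and a median of -0.04. Klf2, a Krüppel-like factor that restrains myeloid activation, had 63 counts in the knockout library and 9 in the wild type library and was 5.54-fold higher (2.97 to 13.7). Csrnp1, a nuclear factor induced through AXIN, had 145 and 297 counts in that order and was 2.38-fold lower (1.95 to 2.93). With the length trend removed the counts were again 1 and 1, and with deposited FPKM they were 2 higher and 0 lower.

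Of 16 genes for serum response factor, its partners and the CREB family, 13 had a log2 ratio above 0, with a median of 0.85. At least 2-fold higher in the knockout library were 5, against 6.05% of all genes compared, and 0 were lower, against 1.74%. With the length trend removed 2 were at least 2-fold higher, against 2.14%, and the median was 0.41. The log2 ratios of Srf, Elk1 and Elk3 were 0.01, -0.02 and 0.10. With the trend removed they were -0.24, -0.17 and -0.18, and that of Creb1 went from 0.67 to -0.20. Crebbp, a coactivator that binds CREB, had 71 counts in the knockout library and 9 in the wild type library, and was 6.23-fold higher (3.37 to 15.4). Elk4, a ternary complex factor, had 65 and 14 counts in that order and was 3.80-fold higher (2.21 to 7.69). Crtc3, a CREB coactivator, was 2.61-fold higher (1.78 to 4.02) and Ep300, an acetyltransferase related to Crebbp, 2.58-fold higher (2.12 to 3.20). The fifth, Mrtfb, is a partner of serum response factor. Crtc3, Ep300 and Mrtfb were short of 2-fold after the length step, with log2 ratios of 0.96, 0.46 and 0.46. Crebbp, Ep300 and Mrtfb fall in the group of longest transcripts, where 32.5% of genes were at least 2-fold higher.

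In the MAP kinase cascade, 1 of 28 genes compared was at least 2-fold higher in the knockout library and 0 lower, with a median of 0.29 that was 0.04 with the length trend removed. Map3k5, the stress-activated kinase ASK1, had 63 counts in the knockout library and 10 in the wild type library and was 5.03-fold higher (2.75 to 11.8). Of 11 other DUSP phosphatases and feedback inhibitors of the cascade, 2 were lower by 2-fold or more and 0 higher, with or without the length step. Dusp10, a phosphatase of p38 and JNK, had 111 counts in the knockout library and 340 in the wild type library and was 3.55-fold lower (2.87 to 4.46). Dusp4, a nuclear phosphatase close to Dusp1, had 122 and 305 counts in that order and was 2.90-fold lower (2.35 to 3.63). The list did not go one way, with a median of 0.07, 6 genes above 0 and 5 below. Dusp5, with 35 counts in the knockout library and 58 in the wild type library, was 1.90-fold lower (1.25 to 3.03). Dusp19, with 51 and 84 counts in that order, was 1.90-fold lower (1.34 to 2.77). Both were short of 2-fold, and were 1.57-fold and 1.61-fold lower with the length trend removed. The highest ratio of the list was that of Dusp6, with 256 and 138 counts, 1.59-fold higher (1.29 to 1.97) and 1.58-fold with the trend removed.

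Of 27 genes known as targets of AP-1 or EGR factors, 1 was at least 2-fold higher in the knockout library and 4 lower, with a median of -0.42. With the length trend removed, 1 was higher and 3 lower, the median being -0.31, and with deposited FPKM 2 were higher and 2 lower. The higher gene was Tnf, with 263 counts in the knockout library and 109 in the wild type library. Timp1, a metalloproteinase inhibitor, had 227 counts in the knockout library and 868 in the wild type library. Pdgfb, a growth factor chain, had 62 and 113 counts in that order and was 2.11-fold lower (1.55 to 2.94), and Ccl3, a chemokine, had 1784 and 3223 counts and was 2.11-fold lower (1.99 to 2.23). Timp1 and Pdgfb are also made by stromal cells, whose markers were lower in the knockout library as given above, and the part of those cells was not tested. Among 14 heat shock genes, which often accompany immediate early genes when cells are handled, 1 was lower by 2-fold or more and 0 higher, the median being -0.30. Hspb1, a small heat shock protein, had 31 counts in the knockout library and 87 in the wild type library and was 3.20-fold lower (2.15 to 5.10).

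**Figure D5:**
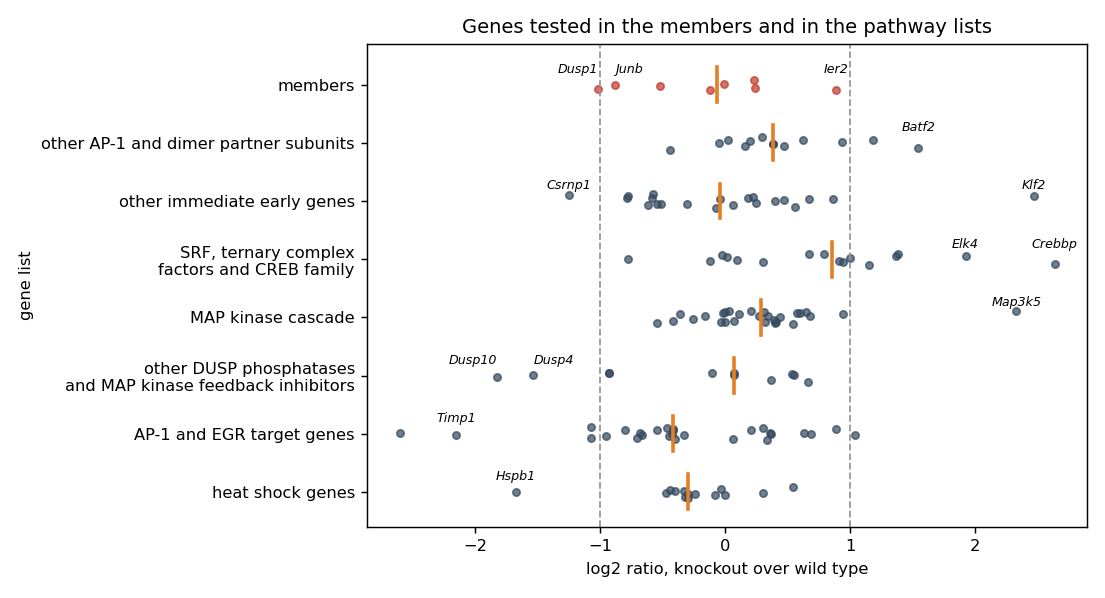
Log2 ratio of knockout over wild type for each gene compared, with the immediate early genes in red at the top and the pathway lists in dark blue below. Orange bars are list medians, dashed lines mark 2-fold, and points are spread vertically for legibility. The list of serum response factor partners and CREB genes has the highest median, 0.85, and the target list the lowest, -0.42.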

How the data were processed

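Libraries were run on a BGISEQ-500, as the labels' protocols state. The deposited tables give estimated counts and FPKM per Entrez gene, in RSEM's layout per the file headers. FPKM was scaled by the authors to transcript length and mapped fragments. The other deposited column used is transcript length in bases. The submitters' processing notes name HISAT2, Bowtie2, RSEM and mm10, with no roles or versions. Genes absent from a file were given 0 counts there.

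Symbols came from RefSeq on GRCm38.p6, the assembly of mm10, for 15561 of 15605 genes, all 10 members included. The promoter table matched 8 members, all but Ier2 and Egr1. Estimated counts were rounded, and edgeR 4.0.16 gave TMM factors of 1.086 for knockout and 0.921 for wild type. Ratio intervals derive from the knockout share of a gene's counts (exact Clopper-Pearson), intervals of FPKM are Poisson, and those of ratios within libraries are exact conditional odds ratio intervals. All cover counting error only. The length trend is a lowess fit with a span of 0.3 over the genes compared, from statsmodels 0.14.6. The alternatives were DESeq2 1.42.0 size factors, library totals, deposited FPKM with 0.1 added, other minimums, pseudocounts and thresholds, and the length step. Calculations used R 4.3.3 and Python 3.11.15 and were tested on simulated data. Named genes are Lgmn, the members, a defining marker per cell type list, and in each pathway list up to 4 genes past 2-fold, some of which are not reported here. Csf1r, Cd68, Krt19, Gata6, Timd4, Fosl1, Mrtfb, Tnf, Prdx2 and Ergic1 were added after their values were seen. So were Srf, Elk1, Elk3, Creb1, Dusp5, Dusp6, Dusp19, Ccn1 and Ccn2. The members and lists were chosen with earlier results of these data known.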

Additional observations from a re-analysis of the deposited data

How the results depend on the processing

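With DESeq2 size factors, pseudocounts of 0.5 or 5, or minimums of 10 or 200, Dusp1 was again the 1 called gene of the 10. Library totals and deposited FPKM gave 1 gene at least 2-fold higher in the knockout library (Ier2) and 0 lower, with medians of 0.18 each, and removal of the length trend gave 1 (Ier2) and 0 with a median of -0.22. The cause of these shifts was not tested. A 1.5-fold threshold gave 1 higher (Ier2) and 2 lower (Junb, Dusp1), a 4-fold threshold 0 and 0, and no minimum 2 lower, the second being Fosb with 2 counts. Over all genes, higher and lower counts were 575 and 165. They were 1036 and 107 with totals, 936 and 102 with FPKM, 921 and 436 with a minimum of 10, 273 and 67 with 200, 1458 and 1531 with none, 203 and 180 without the length trend, 1562 and 607 at 1.5-fold and 40 and 45 at 4-fold. Dusp1 ranged from -1.01 to -0.77, Junb from -0.88 to -0.64, Atf3 from -0.52 to -0.28, Ier2 from 0.86 to 1.12 and Fos from 0.23 to 0.47 over 6 alternatives, each in 1 direction. Fosl2 had the opposite sign in 1 of the 6, and Jun and Jund in 2. No paired analysis was possible because each genotype has 1 library, and no library could be left out. Depth limits Egr1 and Fosb.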
